A study of Mus musculus with 9 samples.

Results

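The collagen genes are described here as 41 of the 21418 protein-coding genes on mouse chromosomes 1 to 19. They were taken by name from the GENCODE annotation of mm9. Every protein-coding gene was kept whose symbol is Col, a number, the letter a and a number. The family was chosen with earlier results of these data known. Of the 41 genes, 11 encode chains of fibrillar collagens and 30 encode other collagens. Chromatin accessibility had been profiled by ATAC-Seq, in which the Tn5 transposase inserts sequencing adapters into open chromatin, while mouse embryonic fibroblasts (MEFs) were reprogrammed to induced pluripotent stem cells (iPSCs). Each gene was followed from 3 kb upstream of its transcription start sites (TSSs) to its 3' end, through the accessible regions called in 9 libraries.

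Collagens are trimeric extracellular matrix proteins built from chains that each come from a separate gene. Fibrillar collagens form the ropes of connective tissue, type IV forms the sheet of basement membranes, type VI forms beaded filaments, and FACIT collagens sit on the surface of fibrils. Fibroblasts are the main source of fibrillar collagen in connective tissue, and pluripotent cells lie in epithelial colonies with little fibrillar matrix. An accessible region marks DNA that proteins other than nucleosomes can reach, and it does not measure how much RNA a gene makes.

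The MEFs came from day 13.5 embryos that carry an EGFP reporter behind an IRES at Oct4, so that all cells of the series share this allele. Oct4, Sox2, Klf4 and c-Myc (OSKM) were delivered by pMXs retroviruses, which integrate into the genome and are silenced at different times in different cells. Day 0 (D0) holds the MEFs before OSKM, and day 3 (D3) holds unsorted cells after it. D6T- and D9T- are cells of days 6 and 9 that had lost the fibroblast surface protein Thy-1, and D12S+ and D16S+ are cells of days 12 and 16 that carried SSEA-1, a surface sugar of pluripotent cells. The iPSCs are the final line. D6 siH3.3 received siRNAs at 50 nM against H3f3a and H3f3b, which both encode the histone variant H3.3, 2 days before OSKM, and D6 siNT received a non-targeting siRNA. By the sample labels these 2 libraries hold Thy-1- cells of day 6, but the sources used here differ on whether they were sorted. Sorting enriches the cells on a path to pluripotency, so day and sorted population cannot be told apart. There was 1 library per condition, so no difference below has a replicate check and no test between conditions is given. Where an interval is printed, it is 95% wide and covers counting error only.

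Total tags ran from 13213117 at D9T- to 31714845 at D0. Heights are given as the pileup of tags at a summit per 1000000 total tags of that library (CPM). The lowest pileup called was 7 to 11 tags, which is 0.331 CPM at D3 and 0.530 CPM at D9T-. A region under that height was not detectable at this depth, which is not the same as closed chromatin. The number of regions called in the genome ranged from 36708 at D9T- to 133132 at D6T-, so counts for collagen genes are set beside those of all protein-coding genes. Of 12 fibroblast marker genes, 11 had a region at D0 and 9 in iPSCs, and their median highest region was 0.91 CPM at D0 and 0.56 CPM in iPSCs. Of 12 pluripotency markers, 5 had a region at D0 and all 12 had one at D16S+ and in iPSCs. Nanog and Zfp42, which mark the pluripotent state, had no region before D12S+. Thy1 had no region at D6T-, D9T- or in either siRNA library. It had 0.41 CPM at D0 and was called again at D12S+, D16S+ and in iPSCs, with 0.62, 0.57 and 0.49 CPM. Of the 12 fibroblast markers, 4 were at least 2-fold lower in iPSCs than at D0 (4.13% of all genes) and 0 higher (10.4% of all genes). Twist1 and Fn1 were higher in iPSCs by less than 2-fold, and Lum had regions only at D16S+ and in iPSCs.

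The collagen genes were long, and most of their accessible regions lay inside the genes rather than at the promoters. The median gene length was 107 kb against 15.5 kb over all protein-coding genes, from 7.11 kb for Col10a1 to 419 kb for Col25a1. At D0, 38 of the 41 genes had an intragenic region (background over all protein-coding genes 46.6%) and 24 had a promoter region (background 57.6%). A promoter region is one that overlaps the 3 kb before a TSS or the TSS itself. With gene length so different, the share with an intragenic region was above the background in every library and cannot be read as particular to collagens. The promoter window is 3 kb for each TSS whatever the gene length, so promoter counts depend less on length. A gene with several TSSs has several windows, from 1 for Col10a1 to 8 for Col16a1. The number of TSSs was not matched to the background. At D3, 33 genes had a promoter region (background 67.6%), and at D6T- 31 genes had one (background 68.3%). At D9T- the count was 11 (background 50.3%), the lowest of the 9 libraries. At D12S+ it was 22 (background 62.9%), at D16S+ 22 again (background 62.9%), and in iPSCs 27 (background 64%). The siRNA libraries had 15 genes with a promoter region for siH3.3 (background 54.2%) and 16 for siNT (background 54.7%). The collagen share of 26.8% at D9T- stood furthest below its background, while the shares of 80.5% at D3 and 75.6% at D6T- were above theirs.

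Intragenic regions were found in 40 collagen genes at D3 (background 56%), 37 at D6T- (background 56.2%) and 26 at D9T- (background 29%). At D12S+ there were 32 such genes (background 40.4%), at D16S+ 26 (background 36%) and in iPSCs 34 (background 44.4%). Both siRNA libraries had 34, beside backgrounds of 33.5% for siH3.3 and 33.4% for siNT. A region of any kind was present in all 9 libraries for most genes, with between 29 genes at D9T- and 40 at D3 having at least 1. Col10a1, which encodes the collagen of hypertrophic cartilage and is the shortest member, had no region in any library. Col6a4, Col6a6, Col9a1 and Col9a2 had intragenic regions but no promoter region in any library. In contrast, Col11a1, Col12a1, Col16a1, Col23a1, Col27a1, Col4a1, Col5a2, Col5a3, Col6a2 and Col7a1 had a promoter region in all 9.

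**Figure D1:**
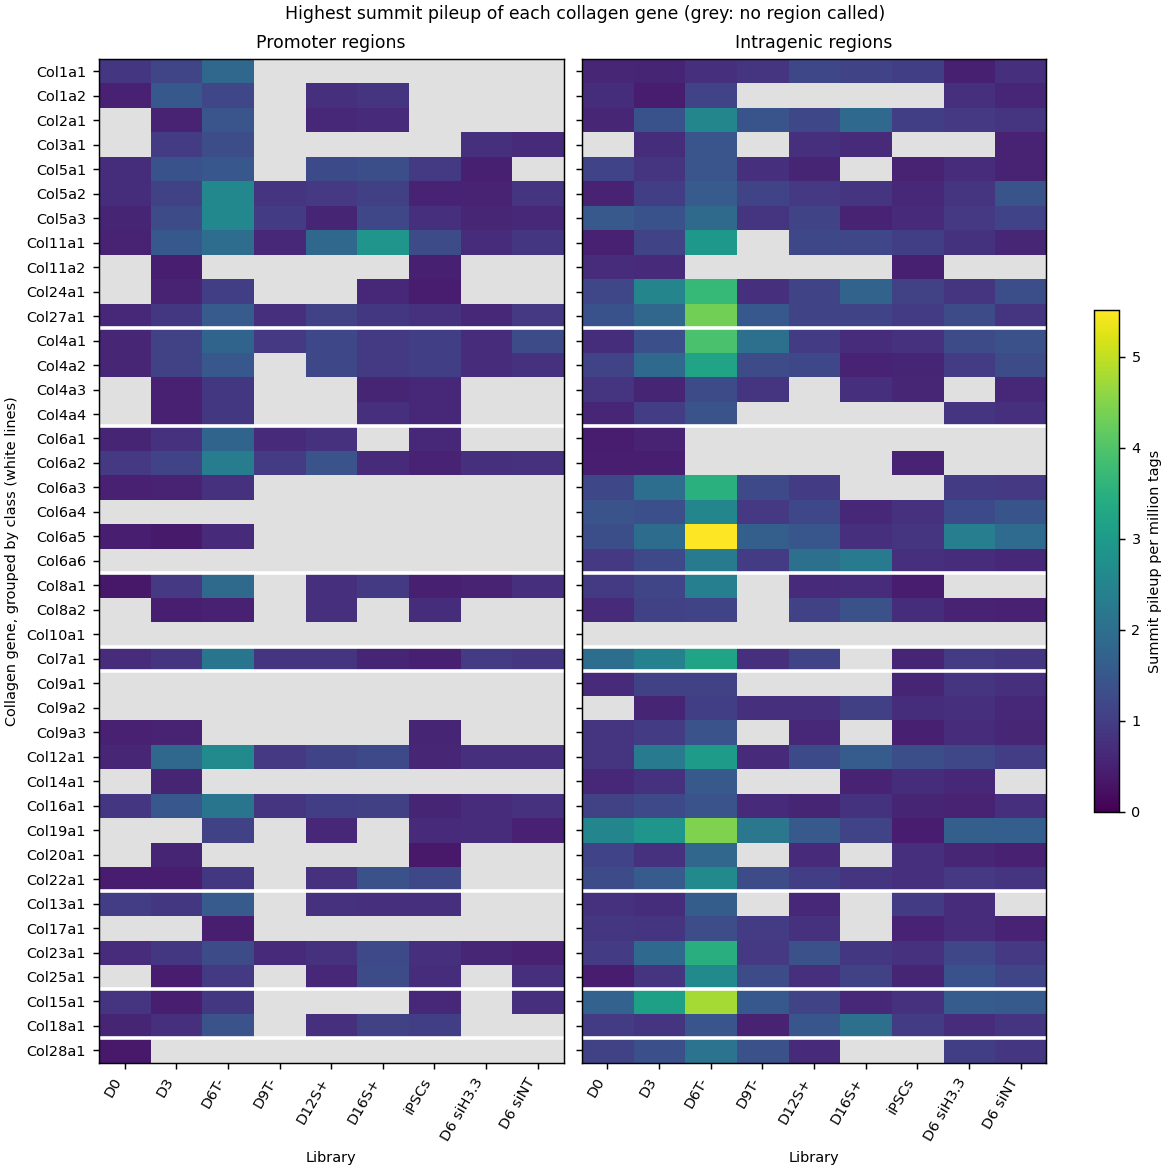
Height of the tallest promoter region (left panel) and the tallest intragenic region (right panel) in CPM (colour scale, brighter is higher) of each collagen gene (rows, white lines between collagen classes) in each of the 9 libraries (columns), grey where no region was called. The brightest cells are intragenic and lie at D6T-, with Col6a5 at 5.52 CPM, and Col10a1 is grey throughout.

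The number of regions differed between libraries much more than the number of genes with at least 1. Summed over the 41 genes there were 313 regions at D0, 422 at D3 and 388 at D6T-, against 72 at D9T- and 122 at D12S+, 81 at D16S+ and 139 in iPSCs. Both siRNA libraries held fewer than D6T-, 111 for siH3.3 and 110 for siNT. Part of this course is that of the whole library, and so the density of regions was set against the density over all protein-coding genes. Collagen genes held 6.74 regions per 100 kb at D0 against 5.53 over all genes, 8.35 against 8.21 at D6T-, 1.74 against 3.55 at D16S+ and 2.99 against 4.59 in iPSCs. As a ratio this was 1.22 at D0 (interval 1.09 to 1.36), 1.20 at D3 and 1.02 at D6T-. It was below 1 in the rest, with 0.570 at D9T- and 0.645 at D12S+, 0.491 at D16S+ (interval 0.395 to 0.610) and 0.652 in iPSCs. The excess at D0 rested on weak regions, since with only the stronger 50% of each library's regions the ratio at D0 was 0.950. With the same number of regions, 36708, kept from every library it was 0.952. The low ratios of the late libraries stayed under both settings, at 0.339 and 0.457 for D16S+ and at 0.512 and 0.494 for iPSCs. The density counts promoter and intragenic regions together, and long genes hold few promoters per 100 kb. Over all genes, promoter regions numbered 14819 beside 36164 intragenic ones at D0, 11623 beside 12892 at D9T- and 15581 beside 16538 at D16S+. The ratio depends on this mix, which neither setting removes, so the low values cannot be read as particular to collagens.

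**Figure D2:**
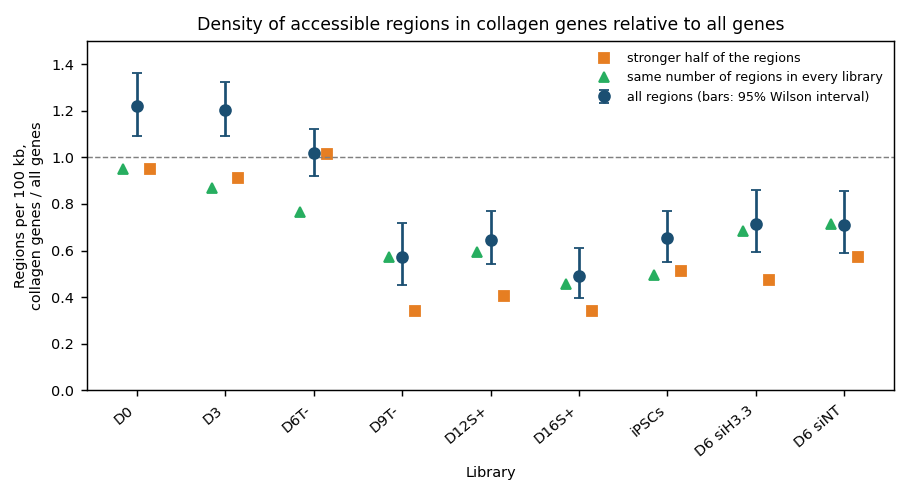
Regions per 100 kb in collagen genes divided by regions per 100 kb over all protein-coding genes (vertical axis, ratio) in each library (horizontal axis), with all regions (circles, bars are 95% Wilson intervals), the stronger 50% of each library's regions (squares), and the same number of regions from each library (triangles). With all regions the ratio is 1.22 at D0 and 0.491 at D16S+, and D0 drops to 0.950 with the stronger regions.

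Col13a1 and Col11a2 held many of the weak regions at D0. Col13a1, which encodes a transmembrane collagen of cell adhesions, had 39 regions at D0 with a median pileup of 15 tags and none above 32 tags. It had 16 regions at D3, 14 in iPSCs, 5 at D6T- and 3 or fewer elsewhere. Col11a2, a chain of cartilage fibrils, had 18 regions at D0, of which 17 overlapped an exon, then 14 at D3, 5 in iPSCs and none in the other 6 libraries. Both genes thus had most of their regions in the libraries with the most tags, D0, D3 and iPSCs, and the part of depth in this was not tested.

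Fibrillar and other collagens both had promoter regions at D0 and in iPSCs at about the rate of all genes. At D0 a promoter region was called for 7 of 11 fibrillar and 17 of 30 other genes (57.6% of all genes), and in iPSCs for 7 and 20 (64% of all genes). The counts were 10 and 21 at D6T- but 8 and 14 at D16S+. Fibrillar genes are shorter, with a median of 45.0 kb against 111 kb. Per 100 kb, fibrillar genes held 7.08 regions at D0 against 6.64 in other collagens, 12.2 against 8.17 at D3, 8.61 against 8.28 at D6T- and 1.43 against 1.58 at D9T-. The late densities were 2.68 and 2.61 at D12S+, with 2.1 and 1.64 at D16S+ and 3.44 and 2.86 in iPSCs. D3 was thus the library in which both groups stood furthest apart. The median highest region was lower in fibrillar genes at D0, with 0.80 CPM against 0.96 CPM, and was higher in iPSCs, with 0.98 CPM against 0.71 CPM. The range within each group was wider than that gap, from 0.54 to 1.55 CPM over fibrillar genes and from 0.44 to 2.52 CPM over the others at D0.

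The chains of the most abundant fibroblast collagens were not among the most accessible genes. Col1a1 (chr11:94797538-94814356, forward strand) and Col1a2 (chr6:4454814-4491543, forward strand) encode both chains of type I collagen, the main fibril of skin, tendon and bone. The highest region of Col1a1 measured 0.88 CPM at D0, then 1.16 at D3 and 1.87 at D6T-, with 0.83 at D9T- and 1.19 at D12S+, 1.13 at D16S+ and 1.02 in iPSCs, with 0.48 for siH3.3 and 0.73 for siNT. The log2 ratio of iPSCs over D0 was 0.20, and it was -0.10 when scaled on the regions open in all libraries, so that its direction is not settled. The position differed as well. A region 2.46 kb upstream of the start was called at D0, D3 and D6T- with 0.88, 1.16 and 0.98 CPM and in no later library. At D0 the region over the intron 1 element, with 0.60 CPM, already counted as intragenic, and the tallest promoter region was the upstream one. At D3 and D6T- the region at the gene's 5' end reached the TSS and counted as promoter. From D9T- on it lay within intron 1 and did not reach the TSS. With no promoter region in iPSCs, Col1a1 counted as having lost its promoter region since D0, although the intronic part remained. Col1a2 had a highest region of 0.73 CPM at D0, 1.52 at D3, 1.17 at D6T-, 0.74 at D12S+ and 0.85 at D16S+, and none at D9T- or in iPSCs. Its promoter region had 0.50 CPM at D0.

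Col3a1 (chr1:45368383-45406551, forward strand), the type III chain that forms thin fibrils with type I, had no region at D0 at all. It had 4 regions at D3 and 6 at D6T-, with a highest of 0.96 and 1.45 CPM, then none at D9T-, 1 at D12S+ and 1 at D16S+, and none in iPSCs. A region 2.31 kb upstream of its start was called at D3, D6T- and in both siRNA libraries only, with 0.96, 1.31, 0.75 and 0.69 CPM. It thus appeared after OSKM in cells of days 3 and 6. The sequences under the Col1a1 intron region and the Col3a1 upstream region are printed because these are the elements on which the account of both genes turns. Each is the 201 bases around a summit on the forward strand of mm9, in lower case, with capitals for matches on either strand to any of 5 motifs: AP-1 (TGANTCA), TEAD (GGAATG), Runx (TGTGGT), the octamer (ATGCAAAT) and the CCAAT box (CCAAT).
Col1a1 intron, chr11:94798534-94798734: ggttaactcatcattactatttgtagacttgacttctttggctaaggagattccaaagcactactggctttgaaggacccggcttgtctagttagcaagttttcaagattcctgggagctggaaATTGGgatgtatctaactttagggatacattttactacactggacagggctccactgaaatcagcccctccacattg
Col3a1 upstream, chr1:45365978-45366178: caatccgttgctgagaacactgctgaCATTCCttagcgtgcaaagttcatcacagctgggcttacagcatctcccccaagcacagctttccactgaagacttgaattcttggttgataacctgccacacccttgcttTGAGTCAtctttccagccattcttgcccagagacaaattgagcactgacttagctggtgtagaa
The Col1a1 window holds a CCAAT match in its reverse orientation, and the Col3a1 window holds an AP-1 and a TEAD match. A match is a description of letters, and no binding was measured.

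Among the minor fibrillar chains, Col11a1 (chr3:113733458-113923636, forward strand), a type XI chain that sets fibril diameter in cartilage, had its tallest promoter region late, while the tallest region inside the gene had 2.95 CPM at D6T-. Its promoter region had 0.54 CPM at D0, then 1.52 at D3 and 1.96 at D6T-, with 0.61 at D9T- and 1.87 at D12S+, 2.88 at D16S+ and 1.28 in iPSCs, with 0.70 for siH3.3 and 0.87 for siNT. It was thus the fibrillar gene with the tallest region at D16S+. Its counting intervals of 0.31 to 0.86 CPM at D0 and 0.89 to 1.79 CPM in iPSCs did not overlap. It was also the collagen gene with the largest rise between these libraries, so this gap is that of a picked extreme. Its log2 ratio of iPSCs over D0 was 1.25, and as low as 0.95 under the alternatives. Col5a3, a type V chain, went the other way, with 1.55 CPM at D0 and 0.75 CPM in iPSCs. Col5a1 and Col5a2, the common type V chains that start type I fibrils, had 1.10 and 0.73 CPM at D0 and 0.94 and 0.64 CPM in iPSCs. Col2a1, the cartilage fibril chain, had 0.60 CPM at D0 and 1.02 in iPSCs, with 2.52 at D6T- and 1.89 at D16S+ between them. Col24a1 and Col27a1, the long minor fibrillar genes, were highest at D6T- with 3.69 and 4.35 CPM, against 1.17 and 1.39 CPM at D0 and 1.09 and 0.98 CPM in iPSCs. Col11a2 had 0.69 CPM at D0 and 0.49 CPM in iPSCs.

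From D0 to iPSCs the median change of the highest region was lower over collagen genes than over all genes. The comparison asks what became of fibroblast matrix genes once pluripotency was reached. A gene with no region in 1 of the libraries took the lowest pileup called there, and genes with none in either were left out. The long collagen genes had a median of 5 regions at D0 against 1 over all genes. Their median height at D0 was 0.90 CPM inside genes and 0.60 CPM at promoters, against 0.66 and 0.85 CPM over all genes. The highest region thus mixes both kinds differently in the 2 sets, so the difference below cannot be read as particular to collagens. The median log2 ratio of the highest region was -0.28 over 39 collagen genes and 0.25 over all genes, with 27 collagen genes below 0 and 12 above. It was -0.21 over 10 fibrillar genes and -0.31 over 29 other genes. In 6 collagen genes the height was at least 2-fold lower in iPSCs (background 4.13%) and in 2 it was at least 2-fold higher (background 10.4%). The lower genes were Col15a1, Col19a1, Col28a1, Col5a3, Col6a3 and Col7a1, and the higher genes were Col11a1 and Col9a2. Scaled on the regions open in all libraries in place of total tags, 12 genes were lower (7.93% of all genes) and 0 higher (4.36% of all genes). The collagen median was then -0.59 and that of all genes -0.051.

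At promoters alone, scaled on total tags, the collagen genes were on balance higher in iPSCs, as were all genes. The median log2 ratio there was 0.25 over 32 collagen genes and 0.39 over all genes. Scaling on the regions open in all libraries had moved the collagen median of the highest region from -0.28 to -0.59. Promoters alone were not rescaled, so the direction of their collagen median is not settled. Only Col1a1 was at least 2-fold lower (background 2.24%), and Col11a1, Col22a1, Col25a1 and Col8a2 were at least 2-fold higher (background 15.9%). A promoter region at D0 and none in iPSCs was found in 5 genes (background 4.65%), which were Col1a1, Col1a2, Col28a1, Col6a3 and Col6a5. The opposite was found in 8 genes (background 11.1%), which were Col11a2, Col19a1, Col20a1, Col24a1, Col25a1, Col4a3, Col4a4 and Col8a2. A promoter region in both was found in 19 genes (53.0% of all genes), and in neither in 9 (31.3% of all genes). With a region assigned by its midpoint, 8 genes had a promoter region at D0 and none in iPSCs, as did 11.6% of all genes. Inside the genes the median log2 ratio was -0.50 over 39 collagen genes against -0.025 over all genes. There 9 collagen genes were at least 2-fold lower (background 12%) and 2 were at least 2-fold higher (background 8.32%). The gap between the collagen and the all-gene median was thus wider inside the genes than at the promoters. Single genes went the other way, with -1.23 at the promoter and 0.76 inside for Col1a1 and -0.80 and 0.16 for Col6a2. Gene length and the number of regions per gene were not matched to the background, and their part in the gap was not tested.

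D16S+, the last sorted library, gave another picture for the size of the heights. Against D0, 8 collagen genes were at least 2-fold lower (background 2.61%) and 7 were at least 2-fold higher (background 50.7%). The median log2 ratio was -0.081 over collagen genes against 1.02 over all genes. The lower genes were Col15a1, Col17a1, Col19a1, Col20a1, Col28a1, Col6a3, Col6a4 and Col7a1. The fibrillar median was 0.36, which has the opposite sign to that in iPSCs, and the median of the other collagens was -0.28.

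**Figure D3:**
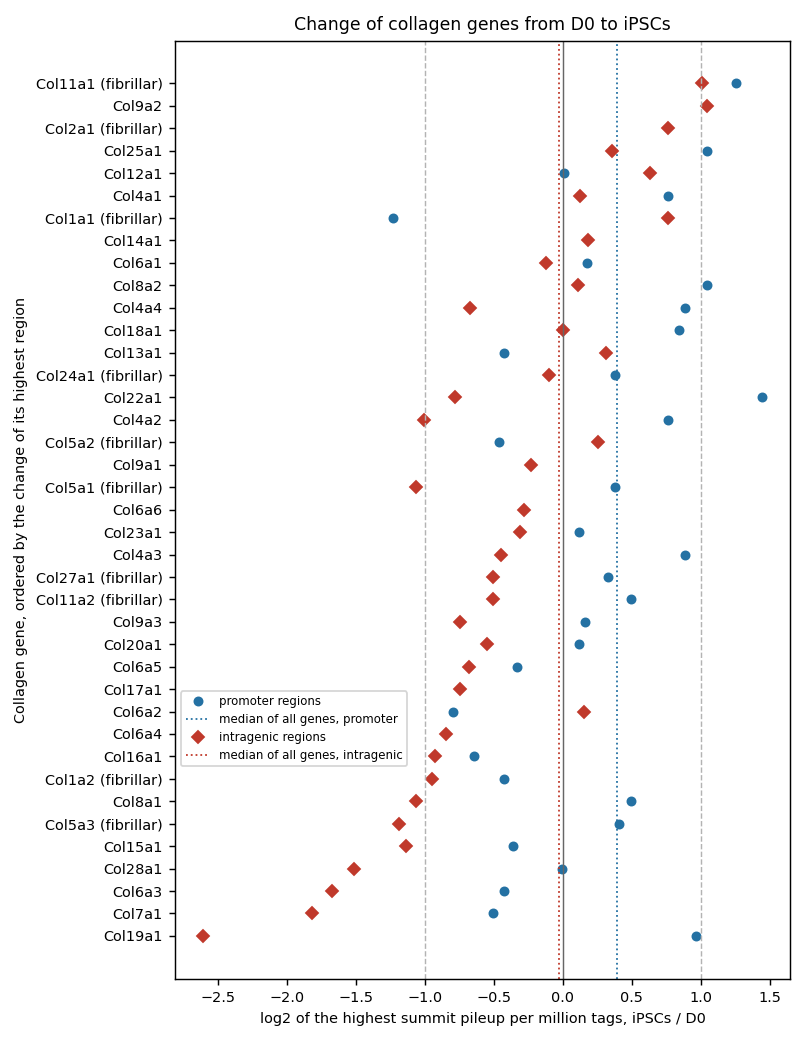
Log2 ratio of iPSCs over D0 (horizontal axis) of the tallest promoter region (circles) and the tallest intragenic region (diamonds) of 39 collagen genes (vertical axis, ordered by the ratio of the highest region of either kind). Dotted lines give the medians of all genes, 0.39 at promoters and -0.025 inside genes, and dashed lines mark 2-fold. Most diamonds lie left of 0, while Col11a1 at the top has a promoter ratio of 1.25.

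The earlier steps were large over all genes. From D0 to D3, 6 collagen genes were at least 2-fold higher (background 47.3%), with a median log2 ratio of 0.45 against 0.95 over all genes. They were Col11a1, Col12a1, Col1a2, Col24a1, Col2a1 and Col3a1, and 5 of these are fibrillar. From D3 to D6T- the medians were 0.82 over collagen genes and 0.75 over all genes. From D0 to D6T-, 24 were at least 2-fold higher (background 80.4%), with a median log2 ratio of 1.26 against 1.73 over all genes. From D6T- to D9T-, 32 were at least 2-fold lower (background 66.4%), with medians of -1.38 and -1.22. At each of these steps the collagen median had the sign of the all-gene median.

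The tallest regions at D0 lay inside collagen genes other than the fibrillar ones. Col19a1 (chr1:24268729-24594311, reverse strand), a FACIT chain of basement membrane zones, had the highest of all, in an intron 33.8 kb from the gene start. This element had 2.52 CPM at D0 (interval 2.00 to 3.14), then 2.88 at D3 and 4.44 at D6T-, with 2.19 at D9T- and 1.53 at D12S+, and no region was called there at D16S+ or in iPSCs. Col7a1 (chr9:108855631-108886920, forward strand), whose product forms the anchoring fibrils under the epidermis, held an element 24.6 kb from its start. That element overlapped exons and had 1.99 CPM at D0, then 2.41 at D3 and 3.23 at D6T-, with 0.76 at D9T- and 1.14 at D12S+, none at D16S+ and 0.56 in iPSCs (interval 0.32 to 0.93). Col15a1 (chr4:47221033-47326039, forward strand), a multiplexin of basement membranes, had a highest region of 1.73, 3.14, 4.77, 1.51 and 1.14 CPM from D0 to D12S+, then 0.61 at D16S+ and 0.79 in iPSCs. All 3 genes thus had their tallest region at D6T-, and the Col19a1 and Col7a1 elements were called in each library from the MEFs up to D12S+.

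A further group of 4 elements was chosen as the tallest intragenic region of its gene at D6T-. All 4 were lower or absent at D0. The Col6a5 element, in an intron of a type VI chain gene 73.0 kb from its start, had 0.63 CPM at D0, then 1.95 at D3 and 5.52 at D6T- (interval 4.57 to 6.61), with 1.67 at D9T- and 1.42 at D12S+. It was the tallest region of any collagen gene in any library, and none was called there at D16S+ or in iPSCs. The Col27a1 element had 1.07 CPM at D0, then 1.55 at D3 and 4.35 at D6T-, with 1.51 at D9T- and 1.14 at D12S+, again with none at D16S+ or in iPSCs. The Col6a3 element, in the gene of the large type VI chain, had 1.20, 1.98, 3.51, 1.14 and 0.97 CPM from D0 to D12S+ and none after. In Col4a1, a chain of most basement membranes, an element 85.1 kb from the start had no region at D0, then 1.36 CPM at D3, 3.93 at D6T-, 2.04 at D9T- and 0.97 at D12S+, and none after. Each of these elements was called in both siRNA libraries as well, at 0.78 to 2.36 CPM. D6T- and the siRNA libraries share day 6 by label, and the heights at D6T- were larger in all 4. The choice of the elements at D6T- favours that order. Over all genes 79% were at least 2-fold lower in siNT than at D6T-, so the difference is not particular to these elements.

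The sequences of 5 of these elements are given as a description of letters, and no motif was common to all 5. Each is again 201 bases of the forward strand of mm9 around the summit, with motif matches in capitals.
Col19a1 intron, chr1:24560402-24560602: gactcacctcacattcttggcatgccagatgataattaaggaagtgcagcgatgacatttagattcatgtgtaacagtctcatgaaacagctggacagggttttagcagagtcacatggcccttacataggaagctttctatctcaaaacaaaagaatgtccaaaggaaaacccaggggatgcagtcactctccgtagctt
Col7a1, chr9:108880081-108880281: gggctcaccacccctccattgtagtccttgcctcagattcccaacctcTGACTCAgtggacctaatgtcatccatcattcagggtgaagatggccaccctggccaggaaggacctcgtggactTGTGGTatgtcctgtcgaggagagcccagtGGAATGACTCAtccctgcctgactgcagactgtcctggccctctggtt
Col6a5 intron, chr9:105789919-105790119: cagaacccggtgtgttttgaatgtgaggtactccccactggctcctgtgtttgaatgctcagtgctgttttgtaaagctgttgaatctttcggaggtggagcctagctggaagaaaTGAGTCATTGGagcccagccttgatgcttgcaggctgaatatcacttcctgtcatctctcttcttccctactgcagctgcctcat
Col27a1 intron, chr4:62984561-62984761: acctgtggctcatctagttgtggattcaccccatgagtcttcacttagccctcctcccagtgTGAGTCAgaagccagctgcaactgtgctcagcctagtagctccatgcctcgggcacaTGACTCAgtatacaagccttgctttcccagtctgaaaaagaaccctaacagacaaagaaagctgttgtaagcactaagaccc
Col6a3 intron, chr1:92731454-92731654: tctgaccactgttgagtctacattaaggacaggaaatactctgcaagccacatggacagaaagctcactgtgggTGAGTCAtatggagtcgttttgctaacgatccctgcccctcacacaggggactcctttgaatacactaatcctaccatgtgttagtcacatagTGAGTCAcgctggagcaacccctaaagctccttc
An AP-1 match was present in 4 of these 5 windows, with 2 matches each in the Col7a1, Col27a1 and Col6a3 windows, and the Col19a1 window held none of the 5 motifs. The window of the Col4a1 element, which is not printed, held 2 CCAAT matches and no AP-1 match. The AP-1 letters lay near 27.5% of all intragenic summits at D0 and 35.8% at D6T-, but these windows were picked for their height and are too few to be read against those shares. In the Col7a1 window the TEAD and AP-1 letters overlap, as do the AP-1 and CCAAT letters in the Col6a5 window.

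A few further elements were chosen because they were tallest late. The Col6a6 intron element, 8.50 kb from the start of another type VI chain gene, had no region at D0, 1.16 CPM at D3, 0.93 at D6T-, 2.04 at D12S+, 2.27 at D16S+ and 0.45 in iPSCs. Col18a1, the multiplexin from which endostatin is cleaved, held an intron element 14.2 kb from the start with 0.46 CPM at D3, 1.48 at D12S+, 2.03 at D16S+ and 0.98 in iPSCs. For comparison with the early elements, the windows of the Col6a6 element and of the Col11a1 promoter are printed, the latter with the 143 bases upstream of the gene start.
Col11a1 promoter, chr3:113733315-113733457: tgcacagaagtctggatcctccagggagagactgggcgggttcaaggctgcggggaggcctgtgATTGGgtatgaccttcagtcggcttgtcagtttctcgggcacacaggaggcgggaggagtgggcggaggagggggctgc
Col6a6 intron, chr9:105721818-105722018: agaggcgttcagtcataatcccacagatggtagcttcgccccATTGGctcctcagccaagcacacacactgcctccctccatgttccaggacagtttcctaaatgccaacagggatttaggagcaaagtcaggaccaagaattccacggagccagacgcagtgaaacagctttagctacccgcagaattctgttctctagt
Both hold a CCAAT match and neither holds an AP-1 match. The Col18a1 window, not printed, held none of the 5 motifs. CCAAT letters also lay in the Col4a1 and Col6a5 windows, and over all genes near 21.1% of intragenic and 28.9% of promoter summits at D16S+, so the match does not set the late windows apart.

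Over all regions of the collagen genes, the early libraries held the larger share. Overlapping regions of the 7 time-course libraries were merged into 629 intragenic and 73 promoter regions, and D0 to D9T- were taken as early and D12S+ to iPSCs as late. Of the intragenic regions, 474 were called only in early libraries, which is 75.4% (interval 71.8 to 78.6) against 65.1% over all protein-coding genes. Only late libraries had 46 of them, 7.31% against 12.9%. Of the promoter regions, 37 were early only, 50.7% (interval 39.5 to 61.8) against 27.6%. Promoter regions present in all 7 libraries numbered 10, which is 13.7% against 36.7%. A smaller share of collagen promoter regions than of promoter regions at large was thus called in all 7 libraries. The early libraries also had more regions in all, so the shares are set beside the background. The background regions were taller, however. The median tallest promoter region per gene was 0.60 CPM in collagen genes against 0.85 CPM over all genes at D0, and 0.64 against 1.02 CPM in iPSCs. The lowest height called at D9T- was 0.530 CPM, so low regions can be missed there. The part of height in these shares was not tested.

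The AP-1 motif, bound by Fos and Jun proteins that are active in fibroblasts, was near pooled collagen summits at D0 at about the all-gene rate. Within 100 bp of the summit it lay in 26.5% of 275 intragenic collagen regions at D0 against 27.5% over all genes, and in 23.8% against 24.1% at D3. At D6T- the shares were 41.1% and 35.8%, at D9T- 46.7% and 31.7%, and at D12S+ 28.4% and 20.5%. At D16S+ they dropped to 5.56% (3 of 54 regions, interval 1.91 to 15.1) and 7.29%, and in iPSCs to 10.5% and 6.30%. The siRNA libraries had 45.2% against 34.7% for siH3.3 and 46.2% against 34.3% for siNT. The lower share at D16S+ than at D12S+ was thus seen both in collagen genes and over all genes. The pooled shares hide a split. Fibrillar genes had 15.2% of 66 regions at D0 (interval 8.44 to 25.7) and other collagens 30.1%, and at D3 15.5% and 27.5%. For siH3.3 the shares were 20% and 52.1%, and for siNT 25% and 52.1%, with 20 fibrillar regions in each. At D9T- they were 45.5% and 46.9%, at D16S+ 7.69% and 4.88%, and in iPSCs 10.7% and 10.4%. The octamer, bound by Oct4, lay in 1.48% of collagen intragenic regions at D6T- (5 of 338) against 1.60% over all genes. In iPSCs it lay in 1.90% (2 of 105) against 1.60%. The shares were 3.33% against 2.12% at D9T-, 3.16% against 1.96% at D12S+ and 3.70% against 2.00% at D16S+. Each of these 3 collagen shares rests on 2 or 3 regions, too few to be set apart from the background.

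**Figure D4:**
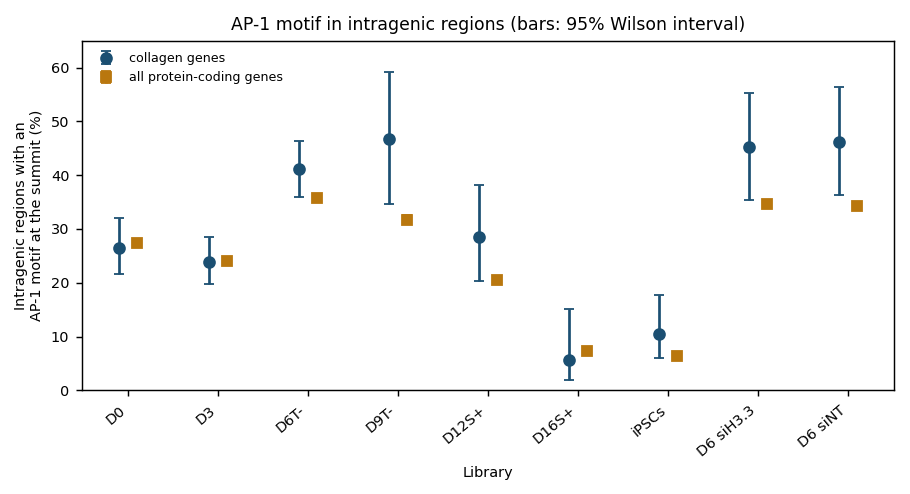
Share (%, vertical axis) of intragenic regions with the AP-1 letters TGANTCA within 100 bp of the summit, for collagen genes (with 95% Wilson intervals) and all protein-coding genes, in each library (horizontal axis). The collagen share is 26.5% at D0, 46.7% at D9T- and 5.56% at D16S+.

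Promoter regions of collagen genes were poor in CpG early. The median number of CpG sites in the 201 bases around the summit was 4 in collagen promoter regions at D0 against 13 over all genes, 6 against 13 at D3 and 5.50 against 12 at D6T-. At D16S+ it was 14 against 16, and in iPSCs 11 against 14. Among these 5 libraries the gap to the background was thus widest at D0. The sets differed in position too, since 70.3% of collagen promoter regions at D0 lay within 5 kb of the gene start against 88.6% over all genes. At D16S+ it was 100% against 90.9%. The median at D0 was 7 in fibrillar and 3 in other collagen genes, and the part of position in the CpG counts was not tested. The CCAAT box lay in 13.5% of collagen promoter regions at D0 (5 of 37) against 29.0% over all genes. At D9T- it lay in 33.3% (4 of 12, interval 13.8 to 60.9) against 31.9%. In iPSCs it lay in 6.25% (2 of 32, interval 1.73 to 20.1) against 26.8%. The regions are too few for an order of the libraries to be read from these shares.

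Genes of 1 class differed in direction. Among basement membrane chains, the head-to-head pairs Col4a1 with Col4a2 and Col4a3 with Col4a4 share promoter regions, of which 1 to 5 per library were counted at both genes. Col4a1 had 0.73 CPM at D0 and 1.02 in iPSCs, while Col4a2 had 1.14 and 1.02. Promoter regions of Col4a3 and Col4a4, the chains of the kidney filter, were absent at D0 and present at D3, D6T-, D16S+ and in iPSCs. Among beaded filament chains, Col6a3 had 1.20 CPM at D0 and no region at D16S+ or in iPSCs, Col6a2 had 0.91 CPM at D0 and 0.53 in iPSCs, Col6a4 had 1.42 and 0.79, and Col6a5 had 1.32 and 0.83. Among 9 FACIT chains the ratio was below 0 for 6 and above 0 for 3. Of the latter, Col12a1 had 0.85 CPM at D0 and 1.32 in iPSCs, Col14a1 had 0.63 and 0.71, and Col9a2, a cartilage chain, had no region at D0 and 0.71 in iPSCs. Col28a1, a chain with von Willebrand factor domains, had 1.07 CPM at D0 and no region at D16S+ or in iPSCs. The transmembrane chain gene Col25a1 had 0.44 CPM at D0 and 0.71 in iPSCs. Of the members not yet given, Col16a1 had 1.07 CPM at D0 and 0.56 in iPSCs, Col8a1 had 0.95 and 0.49, and Col17a1, whose product anchors basal skin cells, had 0.88 and 0.53. Col13a1, Col18a1, Col20a1, Col22a1, Col23a1, Col4a3, Col4a4, Col6a1, Col6a6, Col8a2, Col9a1 and Col9a3 differed by less than 2-fold between both libraries, within heights of 0.56 to 1.29 CPM.

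No collagen gene differed by 2-fold or more between the H3.3 knockdown and its control library. Of 38 genes with a value, 0 were at least 2-fold lower in D6 siH3.3 than in D6 siNT (background 0.524%) and 0 were at least 2-fold higher (background 0.678%), so that the background itself was near 0. The median log2 ratio was 0.13 over collagen genes, 0.0023 over fibrillar genes, 0.14 over the others and 0.058 over all genes. The lowest ratio was that of Col5a2, with -0.73 on the log2 scale, 0.86 CPM for siH3.3 and 1.42 CPM for siNT. Col24a1 had -0.64, Col1a1 -0.61 and Col4a3, which had no region in siH3.3, -0.58. Col8a1 had -0.46 and Col4a2 -0.41. At the other end Col13a1 and Col14a1, with no region in siNT, had 0.75 and 0.64, Col27a1 had 0.49 and Col23a1 0.36. The siNT regions of these genes had at most 31 tags, and the accessibility files hold no measure of how far H3.3 itself was reduced.

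Promoter regions were called in both siRNA libraries for 14 of the 41 collagen genes (51.2% of all genes), in siNT alone for Col15a1 and Col25a1 (3.54% of all genes), and in siH3.3 alone for Col5a1 (2.96% of all genes). Of 140 merged collagen regions 77 were in both libraries, with 32 in siH3.3 only and 31 in siNT only. Intragenic regions were in both for 52.1% of collagen and 52.1% of all regions, and promoter regions for 75% (15 of 20) against 80.2%. Col6a1, a type VI chain gene that the study followed, had no region in either siRNA library, where the lowest height called was 0.429 CPM for siH3.3 and 0.413 CPM for siNT. Its tallest promoter region had 0.57 CPM at D0, and then 0.79 at D3 and 1.78 at D6T-, with 0.68 at D9T- followed by 0.79 at D12S+, none at D16S+ and 0.64 in iPSCs. Heights in siNT were far below those of D6T-, with 31 collagen genes at least 2-fold lower (background 79%) and a median log2 ratio of -1.46 against -1.38 over all genes. Both libraries are labelled day 6, and the part of siRNA treatment or of sorting in this was not tested.

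The genes that fold, process, bind and degrade collagen were followed in the same way through a list of 44 genes, of which 42 had a value from D0 to iPSCs. Of these, 4 were at least 2-fold lower and 3 were at least 2-fold higher in iPSCs (4.13% and 10.4% of all genes), and the median log2 ratio was -0.061, beside 0.25 over all genes. Among 12 genes of propeptide processing and crosslinking, 3 were lower and 0 higher, with a median of -0.31. Lox, the crosslinking lysyl oxidase, had 0.98 CPM at D0 and no region in iPSCs. Its relatives Loxl1 and Loxl4 had 1.86 and 1.04 CPM at D0 and 0.79 and 0.49 CPM in iPSCs. Of 16 folding and modification genes 0 were lower and 1 was higher, namely Crtap, a partner of prolyl 3-hydroxylase, with 0.66 CPM at D0 and 1.58 in iPSCs. Among the receptors Itgb1, the shared integrin beta chain, had 1.07 CPM at D0 and 2.37 in iPSCs. Among the collagenases Mmp14, a membrane protease, had 1.07 and 0.49 CPM, and Mmp9, a secreted gelatinase, had 0.57 and 1.24 CPM. Gp6 and Mmp8 had no region in either library.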

How the data were processed

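ATAC-Seq regions of 9 libraries (7 of the time course, 2 of the siRNA experiment) were analysed, each the only library of its condition. The authors aligned reads of 51 bp to mm9 with STAR, removed duplicates with Picard and called regions in each library apart with MACS2 2.1.0.20151222 at a q-value cutoff of 0.05, without a control and without local background, as the file headers state. As a signal the authors deposited the pileup, which counts the tags, extended to 200 bp, that cover a summit, unscaled for depth. The deposited fold enrichment is a ratio of that pileup to an even spread over the genome, and the deposited −log10 p and q values are MACS2's own. Regions on the mitochondrial chromosome are listed in all 9 files, so total tags include mitochondrial tags. The highest such region had 435 CPM at D0, 781 in iPSCs and 1924 at D9T-, and every CPM height compared between libraries depends on this unmeasured share.

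Overlapping entries of a library were merged. Pileup was divided by the library's total tags, per 1000000 tags (CPM). Genes and TSSs came from the GENCODE annotation of mm9, and the reference sequence NCBIM37 is the same assembly. A region was assigned by an overlap of at least 1 bp, as promoter where it touched the 3 kb before a TSS or the TSS, and otherwise as intragenic. Intervals are Poisson for pileup and Wilson for shares, at 95%. They assume independent tags. The densities per 100 kb use the genes' full length. With 1 library per condition nothing was tested, and a 2-fold difference was used to count genes. The alternatives were only the stronger 50% of regions, an equal number of regions per library, another promoter window, assignment by midpoint, other scalings, fold enrichment, another fold and D16S+ for iPSCs.

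Named genes were all fibrillar collagens, of the others the 5 highest at D0, the 5 with the largest fall and rise to iPSCs and the 3 with the largest difference in each direction between siRNA libraries, Col6a1, and 3 pathway genes in each direction. Further genes were named where a count or an element turned on them. The members and lists were chosen with earlier results of these data known. Marker lists for fibroblasts, pluripotent and epithelial cells were read as a check. Of 7 epithelial genes, 5 had a region at D0 and 7 in iPSCs. The scripts passed 9 of 9 checks on simulated data. The versions were pysam 0.24.0, scipy 1.17.1 and matplotlib 3.10.9 under Python 3.11.15, with pandas 2.3.3 on numpy 2.4.6.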

Additional observations from a re-analysis of the deposited data

Results flagged for a closer look

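The collagen genes on the X chromosome, Col4a5 and Col4a6, were left out of the counts because only chromosomes 1 to 19 were used, and regions were called there too. Col4a5, a type IV chain, had its highest region at D6T- with 1.26 CPM and none at D0, D9T- or in either siRNA library. Col4a6, its neighbour, was highest at D6T- with 2.104 CPM and had 0.57 CPM at D0 and 0.49 CPM in iPSCs. Both thus had their tallest region in the same library as most of the 41 autosomal genes.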

How the results depend on the processing

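No paired analysis was possible because each condition had 1 library, and for the same reason no library could be left out as a replicate. Of the values behind the main comparisons, 107 held under the alternatives, 33 moved and 1 changed sign. With the stronger 50% of regions, 17 genes had a promoter region in iPSCs, the regions numbered 124 at D0 and 58 in iPSCs, 1 gene was higher in iPSCs, and the density ratio was 0.950 at D0, 0.339 at D16S+ and 0.512 in iPSCs. With an equal number of regions per library, 15 genes had a promoter region at D0, the regions numbered 113 at D0 and 65 in iPSCs, 1 gene was higher, and the ratio was 0.952 at D0 and 0.494 in iPSCs. Assignment by midpoint gave 8 genes with a promoter region at D0 and none in iPSCs (11.6% of all genes). Scaled on 12062 regions open in all libraries, 12 genes were lower and 0 higher (7.93% and 4.36% of all genes), with a median of -0.59 over collagen genes, -0.51 over fibrillar and -0.61 over other genes. Centred on the median of all genes, which was 0.25 and was chosen after seeing the data, 12 were lower and 1 higher (7.4% and 5.27% of all genes), with medians of -0.54, -0.46 and -0.56. Fold enrichment in place of CPM gave 1 higher gene. A 1.5-fold limit gave 13 lower and 5 higher genes in iPSCs (10.4% and 29.1% of all genes), and 3 lower and 2 higher for siH3.3 (4.92% and 7.89% of all genes). With D16S+ in place of iPSCs, 5 genes had a promoter region there and none at D0, the regions numbered 81, 7 genes were higher, the median was -0.081, and the fibrillar median changed sign to 0.36. The direction of the collagen median from D0 to iPSCs stayed below 0 under every alternative run. The density ratios with fewer regions were also chosen after seeing the data, and the cause of these differences was not tested.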
